A study of Homo sapiens with 6 samples.

Results

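Numbered LINC genes are long intergenic noncoding RNA genes that carry only a serial number because no function had been assigned when they were named. The 208 genes described here have a symbol made of LINC and digits and at least 40 iCLIP cDNA counts summed over 4 libraries, and LINC01411 and LINC02846 were left out by name. They were taken from 1575 numbered LINC genes among 28231 genes listed in any iCLIP library, of which 8667 reached 40 counts. The members were chosen by their summed iCLIP counts, irradiated libraries included, so their high recovery is a description, whereas the change after irradiation was tested in a fit of all genes. All 208 were listed in every iCLIP library. Just inside the limit, LINC02008, LINC02267, LINC02340 and LINC03002 had 40 counts each, and just outside it LINC00571, LINC01135, LINC01483, LINC02021 and LINC02981 had 39.

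The cells were U2OS, a human osteosarcoma line. For iCLIP the cells carried a stable FLAG-TIRR transgene, and 2 libraries came from cells without treatment and 2 from cells given 5 Gy of X-rays and 4 h of recovery. RNA-seq came from wild-type U2OS cells, with 1 library of each treatment at the same dose and time (the design text names gamma radiation there), so the assays differ in genotype as well as in method. Empty-vector cells were not analysed here, which leaves the iCLIP values without a background. Nothing in the labels tells whether replicates came from separate cultures. The p-values therefore measure only how far these libraries differ, which may be technical variation.

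In iCLIP, ultraviolet light joins RNA to the protein that touches it, and the RNA recovered with that protein is sequenced. TIRR is a small RNA-binding protein that holds 53BP1, a DNA break repair factor, in cells without damage. Long intergenic noncoding RNAs are mostly spliced and polyadenylated like messenger RNAs, are made at low levels, and often stay in the nucleus. Their transcription can follow stress programmes such as that of p53, the transcription factor that ionising radiation activates.

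The iCLIP libraries held 400723 to 799709 counts on genes, and irradiated library 1 was the shallowest. The RNA-seq libraries held 13015406 and 13023903. The p53 target CDKN1A, a cell cycle inhibitor, was 7.63-fold higher in the irradiated iCLIP libraries (edgeR adjusted p = 9.6e-08) and 3.43-fold higher in irradiated RNA-seq. Of 9 mesenchymal markers, VIM had 2803 and 2593 CPM in untreated and irradiated RNA-seq, COL1A1 2768 and 3376, SPARC 1850 and 1903, and FN1 1754 and 2296. CDH2 (130 and 159 CPM), RUNX2 (66.0 and 52.9 CPM) and ALPL (8.73 and 9.17 CPM) were lower. COL1A2 (0.463 and 0.153 CPM) and TWIST1 (0.232 and 0.0764 CPM) were near 0. The highest of the epithelial, blood, endothelial and liver markers was CD68, with 4.56 and 4.81 CPM, and HBB and ALB had 0 counts without treatment and 1 after irradiation.

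After irradiation, 6 of 205 tested LINC genes rose in the TIRR libraries and 8 fell (edgeR quasi-likelihood F test, adjusted p under 0.05 over all tested genes). The risen members were 2.93% of those tested, beside 2.43% of all tested genes. The fallen members were 3.90%, beside 1.07% of all tested genes. Both directions together gave 14 members, beside 3.5% of all tested genes called. The difference between the members and the other genes was not tested, since the members were proposed with results of these data known. DESeq2 gave an adjusted p to 84 of the members and to 12 of the 14, not to LINC00469 and LINC01967, and 7 of these 12 calls remained, 4 rises and 3 falls. With all libraries thinned to equal depth 10 of the 14 remained, 5 rises and 5 falls. LINC02794, LINC01424 and LINC02296 had too few counts for the test, and 9 members passed the filter only through the group where they were higher, among them the risen LINC00469. The median log2 fold change of the tested members was -0.04, beside 0.0016 over all tested genes. The CPM ranges of the groups were apart with the irradiated one on top in 51 tested members and beneath in 54, 24.9% and 26.3% of those tested, beside 22% of all tested genes in each direction.

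**Figure D1:**
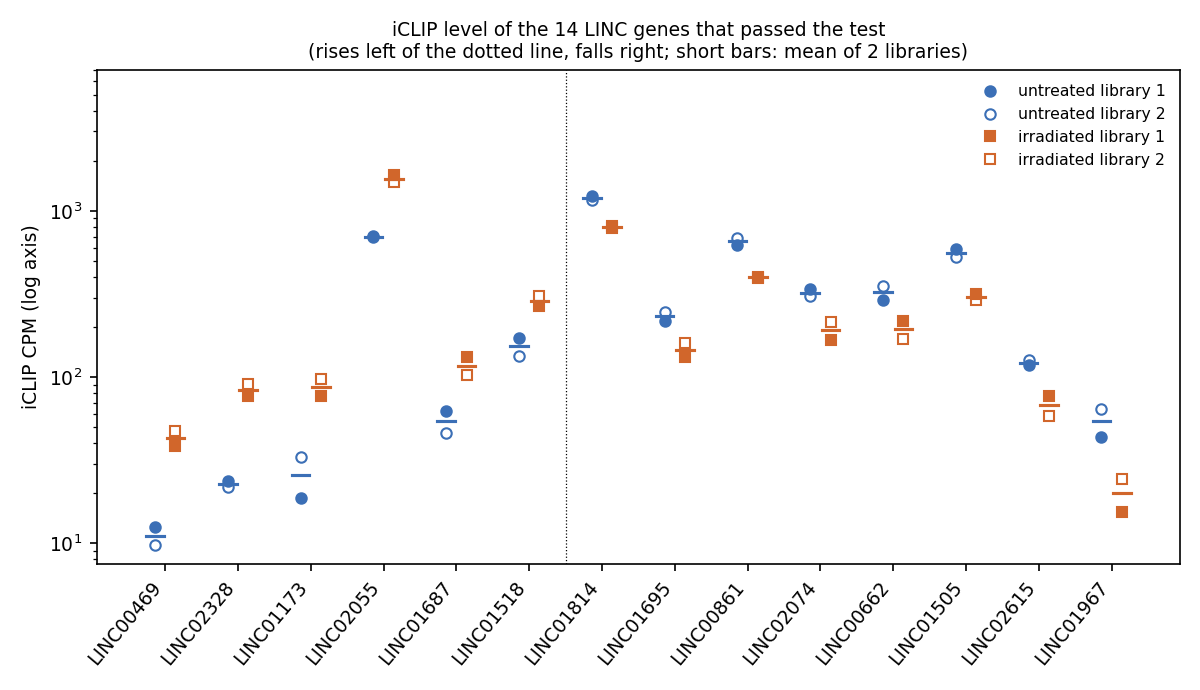
iCLIP level in CPM (counts scaled to 1000000 per library with TMM, log axis) of the 14 LINC genes that passed the test, by library, with short bars at the mean of 2 libraries. In all 14 the untreated and irradiated libraries do not overlap, and LINC02055 and LINC01814 have the highest levels on either side of the dotted line.

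Promoters of 4 of these genes are shown because they belong to members that moved in opposite directions and give a reader the sequence upstream of the annotated start. Each window runs from 250 bases before to 50 bases after the RefSeq start (GRCh38.p14), 5′ to 3′ on the gene's strand, and 123 of the 208 members, 8 of them called, had a window in the RefSeq table. Capitals mark matches on either strand to the p53 half-site, the TATA box letters TATAAA, the CCAAT box letters CCAAT or the GC box letters GGGCGG. A match is a string of letters and not a site known to be used. The risen LINC01173 (chr2:234682418-234682717, plus strand) and LINC01518 (chr10:42691710-42692009, minus strand) come first, then the fallen LINC01505 (chr9:106615808-106616107, plus strand) and LINC01695 (chr21:28228618-28228917, minus strand).
LINC01173: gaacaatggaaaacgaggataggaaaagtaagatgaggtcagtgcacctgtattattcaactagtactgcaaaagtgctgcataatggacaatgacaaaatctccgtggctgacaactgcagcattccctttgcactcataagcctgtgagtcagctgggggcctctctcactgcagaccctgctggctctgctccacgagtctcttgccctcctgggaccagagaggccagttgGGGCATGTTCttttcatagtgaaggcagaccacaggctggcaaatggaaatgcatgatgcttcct
LINC01518: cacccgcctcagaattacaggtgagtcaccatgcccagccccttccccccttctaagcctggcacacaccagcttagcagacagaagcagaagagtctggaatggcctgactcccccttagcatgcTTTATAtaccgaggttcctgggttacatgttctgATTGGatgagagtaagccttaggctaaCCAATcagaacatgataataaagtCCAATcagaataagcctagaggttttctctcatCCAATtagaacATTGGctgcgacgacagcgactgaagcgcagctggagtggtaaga
LINC01505: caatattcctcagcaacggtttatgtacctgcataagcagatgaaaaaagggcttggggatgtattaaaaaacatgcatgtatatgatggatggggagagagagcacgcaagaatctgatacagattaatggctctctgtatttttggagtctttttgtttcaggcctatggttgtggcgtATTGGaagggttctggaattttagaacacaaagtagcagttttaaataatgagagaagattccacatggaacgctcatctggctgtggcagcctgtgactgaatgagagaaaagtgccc
LINC01695: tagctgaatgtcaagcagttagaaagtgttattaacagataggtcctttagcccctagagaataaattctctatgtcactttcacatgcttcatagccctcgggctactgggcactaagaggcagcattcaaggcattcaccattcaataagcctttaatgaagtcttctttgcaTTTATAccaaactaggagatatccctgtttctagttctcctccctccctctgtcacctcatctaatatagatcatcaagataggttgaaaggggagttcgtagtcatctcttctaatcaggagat
The LINC01173 window holds 1 p53 half-site, which begins 15 bases before the start, and no match to the other motifs. LINC01518 has 5 matches to CCAAT and 1 to TATAAA, the latter on the opposite strand 124 bases before the start. In the LINC01505 window there is 1 CCAAT, on the opposite strand 69 bases before the start, and in that of LINC01695 there is 1 TATAAA, on the opposite strand 75 bases before. Of 35116 promoter windows of the same length, 6.63% hold the p53 half-site, 11.5% TATAAA, 34.6% CCAAT and 45.0% GGGCGG. Of the 8 called members with a window, 1 held the p53 half-site, 5 TATAAA, 2 CCAAT and 1 GGGCGG. Every TATAAA match in these 5 lay on the opposite strand, from 3 to 187 bases before the start. The shares among called members and all windows were not tested against each other. Shares among the 123 members with a window were not computed, so LINC promoters in general are not compared here. The RefSeq start may not be the start used in U2OS cells: the deposited tables give LINC01505 a length of 746.5 kb and LINC01518 47.3 kb, beside RefSeq spans of 63.7 kb and 18.7 kb, while LINC01173 (35.1 kb) and LINC01695 (112.6 kb) have equal lengths in both.

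LINC02055, a gene of chromosome 8 (ENSG00000254101, 136530798 to 136897601), was the risen member with the most counts. Its level was 702 and 698 CPM in the untreated libraries and 1636 and 1490 CPM in the irradiated ones. The irradiated libraries lay far above the untreated ones, which nearly coincided. The change was 2.23-fold (log2 1.16 ± 0.12 SE, edgeR adjusted p = 1e-05). Its share of the gene counts was 0.0716% ± 0.00015 without treatment and 0.153% ± 0.0086 after it (SD, n = 2 each), and it then exceeded LINC02109, the member with the most counts over all libraries.

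LINC02328, LINC01173 and LINC00469 had low levels before irradiation and the largest fitted rises. LINC02328 (ENSG00000258733, chromosome 14, 85934678 to 86129778) had 23.8 and 22.0 CPM in untreated and 77.2 and 90.3 CPM in irradiated libraries. The rise was 3.69-fold (log2 1.89 ± 0.27 SE, edgeR adjusted p = 0.000324). LINC01173 (ENSG00000280744, chromosome 2, 234682668 to 234717764) had 18.8 and 32.9 CPM before and 77.2 and 97.9 CPM after irradiation. Its untreated libraries differed from each other, yet both stayed below the irradiated ones. It rose 3.43-fold (log2 1.78 ± 0.29 SE, edgeR adjusted p = 0.000939). LINC00469 (ENSG00000177338, chromosome 17, 73749270 to 73828537) had 10 and 8 counts in untreated libraries, 12.5 and 9.76 CPM, and 15 and 31 counts in irradiated ones, 38.6 and 47.4 CPM. Its fitted change was 3.90-fold (log2 1.96 ± 0.39 SE, edgeR adjusted p = 0.00563), and it rests on the fewest counts of the 14. LINC00469 passed the count filter only through the irradiated libraries, where it was higher, so its p-value is no separate support for the rise.

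LINC01518 and LINC01687 had intermediate levels and the smallest fitted rises. LINC01518 (ENSG00000233515, chromosome 10, 42673013 to 42691759) had 173 and 134 CPM in untreated and 267 and 308 CPM in irradiated libraries. The rise was 1.89-fold (log2 0.92 ± 0.17 SE, edgeR adjusted p = 0.00251). LINC01687 (ENSG00000233215, chromosome 21, 22009158 to 22098459) had 62.5 and 46.4 CPM before and 131 and 103 CPM after irradiation. It rose 2.10-fold (log2 1.07 ± 0.23 SE, edgeR adjusted p = 0.0127). In neither gene did the groups overlap. Without untreated library 2 the calls of LINC01518 (edgeR adjusted p = 0.0808) and LINC01687 (0.129) were lost, and without irradiated library 2 that of LINC00469 (0.0721). LINC01687 also lost its call at equal depth (edgeR adjusted p = 0.112) and with DESeq2 (adjusted p = 0.109). LINC02055, LINC02328 and LINC01173 passed the test under each of 10 alternative settings.

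LINC01814 and LINC00861 were the most abundant of the 8 members that fell. LINC01814 (ENSG00000236008, chromosome 2, 8559833 to 8583792) had 1224 and 1166 CPM in untreated and 805 and 786 CPM in irradiated libraries. The replicates were close, and the group means were 1195 and 796 CPM (log2 -0.59 ± 0.12 SE, edgeR adjusted p = 0.00695). LINC00861 (ENSG00000245164, chromosome 8, 125922523 to 125951197) had 625 and 683 CPM before and 396 and 402 CPM after irradiation. It fell 1.64-fold (log2 -0.71 ± 0.13 SE, edgeR adjusted p = 0.00324). A lower level in bulk cells can mean fewer cells with the RNA or less RNA per cell, and in iCLIP also less of it on the protein, and these cannot be told apart.

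LINC01505 (ENSG00000234323, chromosome 9, 106616058 to 106679802) had the lowest adjusted p among the falls. Its level was 590 and 525 CPM in untreated and 316 and 292 CPM in irradiated libraries, which did not overlap. It fell 1.84-fold (log2 -0.88 ± 0.14 SE, edgeR adjusted p = 0.000807), and this call too held under all 10 alternatives. LINC02074 (ENSG00000266357, chromosome 17, 74062111 to 74112899) had 336 and 309 CPM before and 167 and 216 CPM after irradiation. The fall was 1.65-fold (log2 -0.73 ± 0.16 SE, edgeR adjusted p = 0.0136). LINC00662 (ENSG00000261824, chromosome 19, 27790493 to 27793940), which has been studied in several cancers, had 293 and 353 CPM in untreated and 219 and 170 CPM in irradiated libraries. It fell 1.69-fold (log2 -0.76 ± 0.17 SE, edgeR adjusted p = 0.0139). LINC00662 overlaps the member LINC02987, which did not pass the test (log2 -0.20 ± 0.24 SE, edgeR adjusted p = 0.773), and reads in the overlap may be shared.

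The remaining falls had smaller counts or passed more narrowly. LINC01695 (ENSG00000236532, chromosome 21, 28116094 to 28228667) had 216 and 246 CPM in untreated and 131 and 161 CPM in irradiated libraries. It fell 1.56-fold (log2 -0.64 ± 0.17 SE, edgeR adjusted p = 0.0393). LINC02615 (ENSG00000251432, chromosome 4, 128428016 to 128519398) had 118 and 127 CPM before and 77.2 and 58.1 CPM after irradiation, a fall of 1.86-fold (log2 -0.89 ± 0.21 SE, edgeR adjusted p = 0.0246). The largest fitted fall belonged to LINC01967 (ENSG00000235493, chromosome 3, 28007196 to 28028604), whose replicates were uneven in both groups. It had 43.8 and 64.7 CPM in untreated and 15.4 and 24.5 CPM in irradiated libraries, with 6 and 16 counts in the latter, and fell 2.57-fold (log2 -1.36 ± 0.35 SE, edgeR adjusted p = 0.0343).

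Of the 8 falls, LINC01505 kept its call when any single library was left out. Without untreated library 1 the edgeR adjusted p was 0.121 for LINC01814, 0.113 for LINC02074, 0.0768 for LINC01695 and 0.0552 for LINC02615. Without untreated library 2 it was 0.077 for LINC00861, 0.177 for LINC00662, 0.311 for LINC01695, 0.141 for LINC02615 and 0.281 for LINC01967. Without irradiated library 1, the shallowest, LINC01695 (0.0975) and LINC01967 (0.051) lost the call, and without irradiated library 2 LINC00662 (0.0798) and LINC02615 (0.249) did. The number of falls was 4, 3, 8 and 7 with these libraries left out in that order. With all libraries thinned to equal depth the edgeR adjusted p was 0.0584 for LINC00662, 0.0704 for LINC02615 and 0.0531 for LINC01967. With DESeq2 the adjusted p was 0.107 for LINC02074, 0.114 for LINC00662, 0.306 for LINC01695 and 0.280 for LINC02615, and LINC01967 got none. In each of these settings the genes stayed lower in the irradiated libraries.

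**Figure D2:**
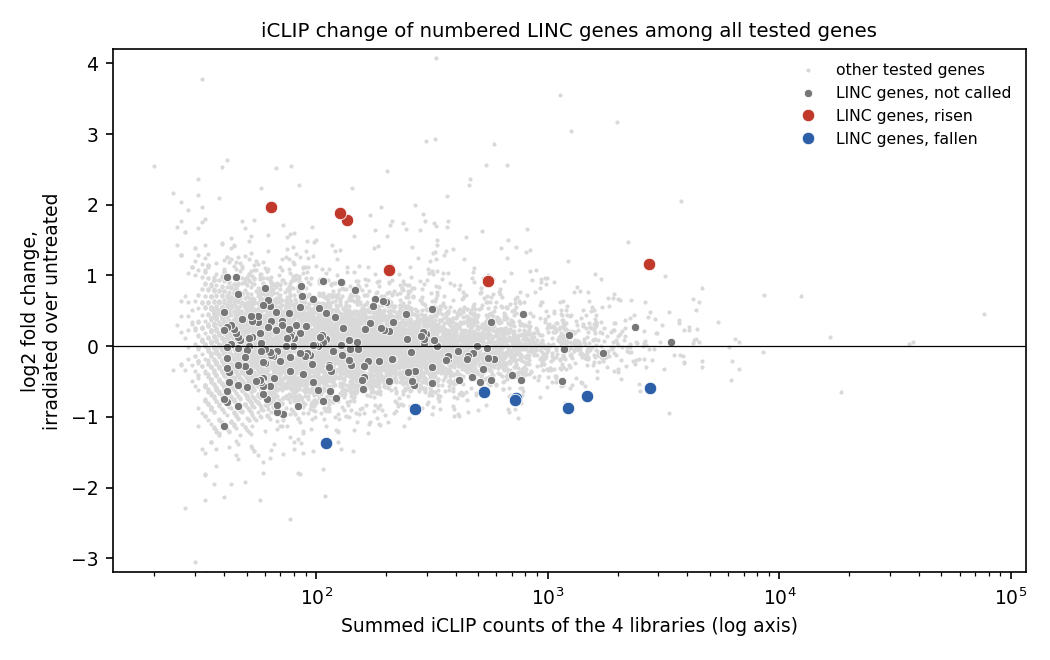
iCLIP log2 fold change, irradiated over untreated, against summed counts of the 4 libraries (log axis) for every tested gene, with LINC genes drawn over the other genes in gray. The 6 risen LINC genes have 64 to 2743 summed counts and the 8 fallen ones 110 to 2762.

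Among the members that did not pass the test, fitted changes ran from -1.13 to 0.98 on the log2 scale. The 5 lowest were LINC03002 (-1.13), LINC01956 (-0.96), LINC01270 (-0.94), LINC02714 (-0.85) and LINC02301 (-0.84), with edgeR adjusted p from 0.292 for LINC02301 to 0.462 for LINC02714. The 5 highest were LINC00689 (0.98), LINC01310 (0.97), LINC01619 (0.93), LINC01138 (0.91) and LINC02873 (0.86), with edgeR adjusted p from 0.067 for LINC01138 to 0.382 for LINC01310. Most of these had few counts: LINC03002 had 15 and 16 without treatment, then 3 and 6 after irradiation. LINC01619 was more even, with 28.8 and 30.5 CPM before and 54.0 and 58.1 CPM after irradiation, yet its edgeR adjusted p was 0.088. LINC00299 came nearest to the threshold, with 476 and 501 CPM in untreated and 358 and 338 CPM in irradiated libraries (log2 -0.49 ± 0.14 SE, edgeR adjusted p = 0.0513). It passed without irradiated library 1 (edgeR adjusted p = 0.0171), with library totals (0.0254) and with no filter (0.0403). In the other edgeR settings its adjusted p was 0.0547 to 0.410, and with DESeq2 it was 0.328. LINC01138 passed in 1 setting, without irradiated library 2 (edgeR adjusted p = 0.0429).

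Most of the LINC RNAs most abundant in the TIRR libraries did not pass the test, though called members had higher median counts. Median summed counts were 723.5 in fallen and 171 in risen members, beside 94 in those not called. LINC02109 (ENSG00000259786, chromosome 5, 29143503 to 29172975) had 1200 and 1315 CPM in untreated and 1384 and 1242 CPM in irradiated libraries, which overlapped (log2 0.06 ± 0.12 SE, edgeR adjusted p = 0.886). LINC00963 (ENSG00000204054, chromosome 9, 129488660 to 129513686), studied mainly in prostate cancer, had 828 and 812 CPM before and 944 and 1031 CPM after irradiation. Its groups did not overlap, but the change did not pass (log2 0.27 ± 0.12 SE, edgeR adjusted p = 0.299). LINC02780 had 658 and 668 CPM in untreated and 584 and 658 CPM in irradiated libraries, LINC00470 had 449 and 443 against 399 and 462, and LINC01876 had 463 and 423 against 486 and 497. Their changes did not pass the test (log2 -0.09 ± 0.13, -0.04 ± 0.14 and 0.15 ± 0.13 SE). LINC01237 (log2 0.46 ± 0.15 SE, edgeR adjusted p = 0.127) and LINC01036 (log2 -0.48 ± 0.16 SE, edgeR adjusted p = 0.15) complete the 12 members with the most counts, together with LINC02055, LINC01814, LINC00861, LINC01505 and LINC00299. Both passed in 1 setting, without irradiated library 2, with edgeR adjusted p of 0.0122 for LINC01237 and 0.00469 for LINC01036.

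Counts per kb of the deposited gene length give another order. LINC00963 led with 18.1 counts per kb, averaged over both untreated libraries, followed by LINC02780 with 14.7, LINC01089 with 9.55, LINC02878 with 9.29, LINC01814 with 9.19 and LINC01290 with 6.17. LINC01290 did not pass the test, except without irradiated library 2 (edgeR adjusted p = 0.0483). The median member had 0.268 counts per kb, below the 0.739 over all genes with at least 40 counts. LINC01089 is known as a metastasis-inhibiting RNA that is reduced in breast cancer. It overlaps the protein-coding gene SETD1B, and had 103 and 101 CPM in untreated and 105 and 125 CPM in irradiated libraries. Deposited lengths exceeded 2 times the RefSeq span for 86 members, so a count per kb depends on which model is used.

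All members together held 2.01% and 1.97% of the gene counts in the untreated iCLIP libraries and 1.84% and 1.87% in the irradiated ones. The means were 1.99% ± 0.026 and 1.85% ± 0.019 (SD, n = 2 each). The difference between the treatments is a description only. The summed counts that chose the members come mostly from the deeper untreated libraries, and the rule leaves out 2 genes that rose. With LINC01411 and LINC02846 included, the shares were 1.997% ± 0.027 and 1.91% ± 0.018. The 10 members with the most counts held 36.8% to 38.6% of the members' counts in each iCLIP library. In RNA-seq the members held 0.160% and 0.170% of the gene counts.

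Of 206 members with a RefSeq position, 33 lay on chromosome 2, 17 on chromosome 5 and 16 on chromosome 4. All had the RefSeq biotype lncRNA, 125 overlapped another RefSeq gene, and 15 overlapped a protein-coding one. Among the 14 called members, 5 overlapped another gene and 0 a protein-coding gene within their RefSeq spans. These were LINC02055, LINC00662, LINC01695, LINC02328 and LINC00469, and since no source used here states the strand setting, reads of overlapping genes could be shared. The overlapping LINC01697, LINC02316 and LINC02092 had at most 5 counts in any iCLIP library, far below LINC01695, LINC02328 and LINC00469. RefSeq spans can be far shorter than the deposited lengths. LINC01505 spans 63.7 kb in RefSeq and 746.5 kb as deposited, and LINC00861 28.7 and 429.3 kb. LINC01695 and LINC01173 have equal lengths in both. Genes overlapping only the longer intervals were not looked for, so sharing of reads with coding genes was not tested.

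The median change had a different sign in longer and shorter members, at a split of 100 kb that was chosen after the values were seen, and the difference was not tested. The 138 tested members of at least 100 kb in the deposited tables had a median log2 fold change of -0.13, with 2 risen and 8 fallen. Among all tested genes of that length, 2.23% rose and 2.02% fell. The 67 tested members under 100 kb had a median of 0.15, with 4 risen and 0 fallen (14 had an unadjusted p under 0.05 in either direction). Of all tested genes under 100 kb, 2.54% rose and 0.541% fell. For other genes with at least 40 counts the medians were -0.04 at 100 kb or more and 0.02 below. The medians kept their signs under each of 10 alternative settings. With DESeq2 the longer members had 2 rises and 3 falls and the shorter ones 2 rises and 0 falls. The split depends on the gene model: LINC01814, LINC00662 and LINC02074, with 105.3, 109.3 and 110.8 kb in the tables, span 24.0, 3.45 and 50.8 kb in RefSeq, and of the 8 falls LINC01695 alone has a RefSeq span over 100 kb.

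**Figure D3:**
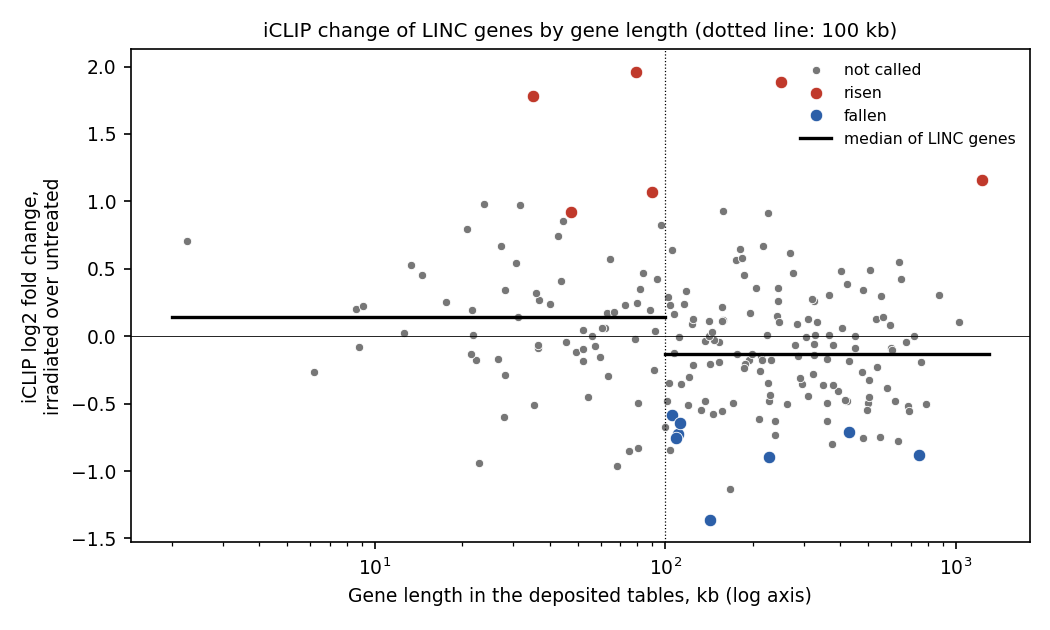
iCLIP log2 fold change of each tested LINC gene against its length in the deposited tables (kb, log axis), with black bars at the medians below and above 100 kb. The median is 0.15 for the shorter and -0.13 for the longer genes, and the fallen genes lie right of the dotted line.

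In untreated cells, LINC RNAs took a larger share of the TIRR libraries than of the RNA-seq library. This is a description, since iCLIP counts chose the members. By Ensembl identifier, 202 members were listed in RNA-seq, 6 others (LINC03006, LINC02968, LINC01950, LINC01145, LINC02745 and LINC03009) were not, and 122 had at least 20 untreated RNA-seq counts. Over these 122 the median ratio of the iCLIP to the RNA-seq share was 9.74-fold, and 119 had a ratio above 1. Genes in general with at least 40 iCLIP counts had a median of 1.83-fold, and all listed genes 1.02-fold. A high ratio was not particular to LINC genes. With the same minimums, the median was 21.8-fold for 19 microRNA host genes. It was 3.75-fold for 172 antisense genes and 1.77-fold for 14 small nucleolar RNA host genes. Longer genes had higher ratios among members and among other genes. Medians were 13.7-fold for members of at least 100 kb and 6.18-fold for shorter ones. In other genes with at least 40 counts they were 4.17-fold and 1.17-fold. No source used here states whether intronic reads were counted alike in both assays.

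The highest ratio belonged to LINC01524, with 159 and 152 iCLIP counts and 21 RNA-seq counts in untreated cells, 119-fold. LINC01237 followed with 110-fold, then LINC00299, a gene near the transcription regulator ID2, with 103-fold, LINC01876 with 83.8-fold, LINC02994 with 78.9-fold and LINC02109 with 73.1-fold. LINC02109 had 229 RNA-seq counts, 0.00176% of the RNA-seq gene counts, and 0.129% ± 0.0085 of the iCLIP gene counts (SD, n = 2). In the deposited tables these genes run from 186.0 kb for LINC01237 to 502.8 kb for LINC02994, but the RefSeq spans of LINC02109 and LINC01524 are far shorter. At the other end, LINC02693 had 27 and 20 iCLIP counts and 492 RNA-seq counts, a ratio of 0.803. LINC02245 (0.923) and LINC00958 (0.968) also lay below 1, and LINC02864 (1.08), LINC02381 (1.20) and LINC02987 (1.43) slightly above. LINC00958, an RNA linked to lymph node spread of bladder cancer, had 1010 untreated RNA-seq counts, and its shares in both assays were close. These genes were named for their low ratios, so they do not show how iCLIP share follows RNA level.

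**Figure D4:**
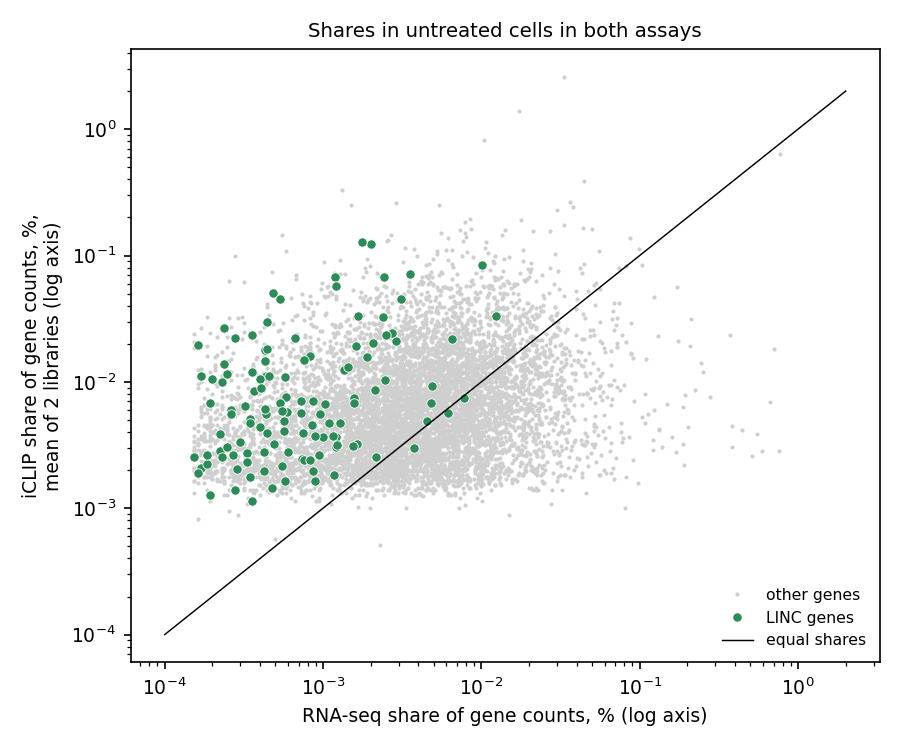
Share of gene counts in untreated iCLIP (%, mean of 2 libraries, log axis) against that in untreated RNA-seq (%, log axis), LINC genes in green. All genes drawn have at least 20 untreated RNA-seq counts and at least 40 summed iCLIP counts. Of 122 LINC genes 119 lie above the line of equal shares, LINC02109 among the highest with 0.129% in iCLIP.

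In RNA-seq, which has 1 library per treatment and no replicate check, 145 members had at least 20 counts in both libraries together. Of these, 15 were higher and 8 lower after irradiation by over 1.5-fold with a 95% counting interval beyond 1, that is 10.3% and 5.52%, beside 3.93% and 4.33% of all genes with that many counts. The summed member counts had a ratio of 1.05 (exact 95% interval 1.03 to 1.07). With at least 50 counts, the highest ratios were those of LINC01173 (24 and 60 counts, 2.47-fold, 95% interval 1.52 to 4.15), LINC00877 (17 and 36 counts, 2.09-fold), LINC02328 (43 and 84, 1.93-fold), LINC01473 (17 and 33, 1.92-fold) and LINC02966 (56 and 102, 1.80-fold). LINC01173 and LINC02328 are also among the largest fitted rises in iCLIP, whereas LINC00877 (log2 0.0062) and LINC01473 (log2 -0.09) did not change detectably there. The lowest ratios were those of LINC01191 (34 and 19 counts, 0.553), LINC01166 (52 and 30, 0.570), LINC00861 (154 and 89, 0.571), LINC02506 (323 and 189, 0.579) and LINC02340 (62 and 37, 0.590). LINC01166 went the other way in iCLIP without passing the test, with 47.5 and 37.8 CPM before and 61.7 and 82.6 CPM after irradiation (log2 0.80 ± 0.26 SE, edgeR adjusted p = 0.116). Without irradiated library 1 LINC01166 passed (edgeR adjusted p = 0.0268), and in the other edgeR settings its adjusted p was 0.102 to 0.563. These intervals cover counting error only.

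Most of the members called in iCLIP had an RNA-seq ratio on the same side. For LINC02055 the RNA-seq counts were 461 and 776, giving a ratio of 1.66 (95% interval 1.48 to 1.87), LINC01518 had 247 and 320 counts, a ratio of 1.28 (1.08 to 1.52), and LINC01687 had 124 and 179 counts, a ratio of 1.43 (1.13 to 1.81). The interval of LINC00469, with 2 and 9 counts, ran from 0.921 to 42.3. Thus the 5 risen members with at least 20 counts all had ratios above 1, beside 83% of all risen genes. Among the falls, the ratio was below 1 for 7 of 8, beside 88.8% of all fallen genes. LINC00861 had a ratio of 0.571 (0.435 to 0.747), LINC01814, with 262 and 173 counts, 0.653 (0.536 to 0.794), LINC02074, with 216 and 151, 0.691 (0.558 to 0.855), and LINC00662, with 1610 and 1401, 0.860 (0.800 to 0.925). For LINC02615 (177 and 153 counts), LINC01967 (57 and 44) and LINC01695 (46 and 41) the interval included 1.

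LINC01505 was the fallen member whose RNA-seq ratio did not lie below 1. The untreated RNA-seq library held 157 counts and the irradiated one 166, which gives a ratio of 1.05 (95% interval 0.835 to 1.31), while its iCLIP level fell to 0.544 of the untreated one. The interval lies above the iCLIP ratio, but the RNA-seq cells were wild type and had 1 library each, so the difference between the assays was not tested. Over 143 members tested in iCLIP with at least 20 RNA-seq counts, the log2 changes in both assays had a Pearson r of 0.288 and a Spearman rho of 0.267. The values over 8490 genes were 0.323 and 0.221. These are descriptions across genes, which share libraries and are not independent replicates.

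**Figure D5:**
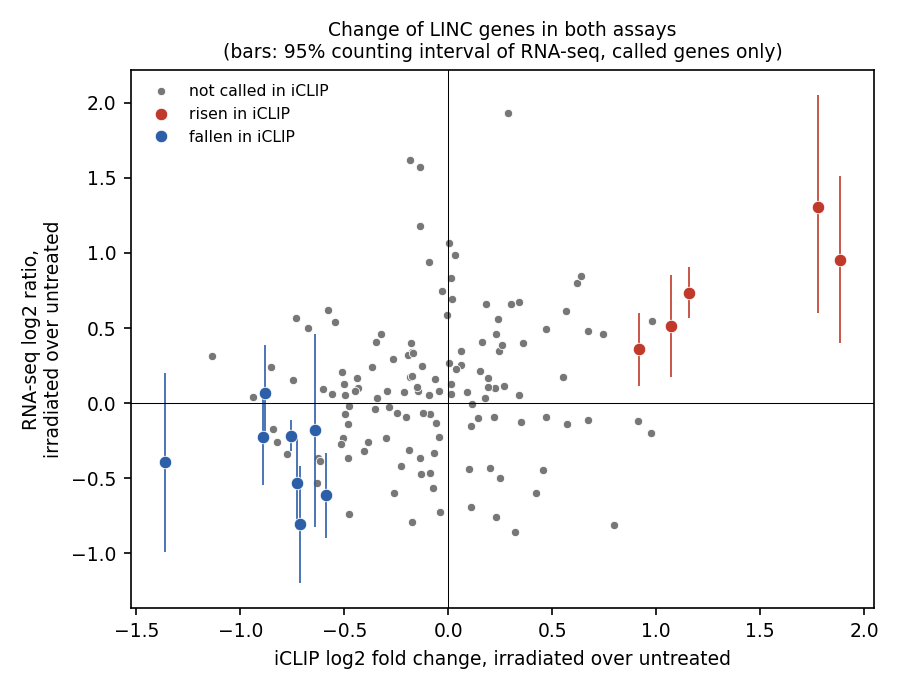
RNA-seq log2 ratio against iCLIP log2 fold change, irradiated over untreated, for LINC genes with at least 20 RNA-seq counts, with 95% counting intervals for the genes called in iCLIP. The 5 risen genes lie at upper right, and LINC01505 is the fallen gene whose RNA-seq ratio is above 1.

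Other noncoding classes with at least 40 iCLIP counts gave 8 risen and 2 fallen of 199 tested antisense genes, 2 and 1 of 28 microRNA host genes, and 0 and 0 of 15 small nucleolar RNA host genes, 1 of which had an unadjusted p under 0.05. Of 38 well-known long noncoding RNAs, taken without that minimum, 24 were tested, 5 rose (PURPL, MIR34AHG, PVT1, PINCR and NEAT1) and 0 fell. PINCR had 2 and 1 counts in untreated libraries and 10 and 19 in irradiated ones. It passed the count filter only through the latter, so its p-value is no separate support for its rise. PURPL, MIR34AHG and PINCR are known p53 targets. LINC genes had 6 rises and 8 falls of 205, and the difference between the classes was not tested. The left-out LINC01411 and LINC02846 rose 5.90-fold and 5.85-fold (edgeR adjusted p = 1.27e-08 and 0.000491), and with them 8 numbered LINC genes would have risen. LINC02846 had 6 and 10 counts in untreated libraries and 18 and 44 in irradiated ones. It passed the count filter only through the irradiated libraries, where it was higher, so its p-value is no separate support for the rise.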

How the data were processed

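iCLIP of FLAG-TIRR was measured in 2 untreated and 2 irradiated U2OS libraries and RNA-seq in 1 library of each treatment. Per the file headers, the authors' tables hold unscaled cDNA counts for each gene. They also deposited the percent of all cDNA per gene, intergenic counts included, per the file headers. The genome build is hg38 and kallisto 0.44.0 is named for RNA-seq, per the submitters' processing notes. Aligner, duplicate removal, annotation release and strand setting: not given in the sources used here.

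Library sizes were gene counts without the intergenic line (30.6% to 31.3% of iCLIP and 44.4% of RNA-seq counts). Irradiated and untreated iCLIP libraries were compared with edgeR 4.0.16 in R 4.3.3 (TMM, default filterByExpr, two-sided quasi-likelihood F test, Benjamini-Hochberg at 0.05 over 9230 tested genes), a procedure tested on simulated data. CPM were computed per 1000000 after TMM scaling. RNA-seq ratios are TMM-scaled with exact conditional 95% intervals. Ratios of iCLIP to RNA-seq share carry a prior count of 0.5. Intervals cover counting error only. RefSeq GRCh38.p14 gave positions and promoters, matched by symbol. Python 3.11.15, pandas 2.3.3, scipy 1.17.1 and matplotlib 3.10.9 were used.

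The members, lists and tests were chosen with earlier results of these data known. The rule for named members takes those called, the 12 with the most counts, the 5 largest changes in each direction among those not called, the 6 highest per kb, the 6 highest and lowest iCLIP over RNA-seq ratios, the 5 largest RNA-seq ratios in each direction with at least 50 counts, and those next to the limit of 40. Alternatives were DESeq2 1.42.0, library totals, no filter and a stricter filter, equal depth, a replicate block, each library left out, and other minimums and denominators. Replicate numbers were not treated as pairs.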

Additional observations from a re-analysis of the deposited data

Results flagged for a closer look

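Counts outside genes entered no comparison above. The intergenic line held 31.3% and 30.9% of all counts in the irradiated iCLIP libraries, above the 30.6% and 30.8% in both untreated ones. The difference is small beside the level, and its part in the share held by LINC genes was not tested.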

How the results depend on the processing

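The 14 calls became 7 with DESeq2 1.42.0, which gave no adjusted p to LINC00469 and LINC01967 and called 106 rises and 15 falls over all genes (224 and 99 with edgeR), and 7 to 16 when 1 library was left out. The 8 falls became 3 with DESeq2, 5 at equal depth and 3 to 8 with 1 library left out. Rises stayed at 4 to 8 throughout, and the causes were not tested. LINC02055, LINC02328, LINC01173 and LINC01505 kept their calls in all 10 settings of the fit. Rises made up 69.3% of all calls, 58.2% with library totals and 87.6% with DESeq2, and among LINC genes library totals gave 6 rises and 9 falls and DESeq2 4 and 3. The median log2 fold change of LINC genes, -0.04, was -0.11 with library totals, -0.072 without a filter, -0.080 with a stricter filter, -0.073 for members with at least 100 counts, and -0.078 to -0.025 with 1 library left out. The untreated and irradiated shares of 1.99% and 1.85% were 1.38% and 1.28% of all counts, 1.86% and 1.72% without LINC02109, and 1.997% and 1.91% with LINC01411 and LINC02846, an alternative chosen after seeing the data. The median log2 ratio of iCLIP to RNA-seq share, 3.28, was 3.29 with a prior count of 2, 2.97 with at least 50 RNA-seq counts and 3.24 to 3.26 from 1 untreated library. The change of LINC02109, 0.06, was -0.0086 with library totals and -0.017 to 0.14 with 1 library left out, below 0 without untreated library 1 (-0.015) or irradiated library 1. With 1 library left out LINC00470 ranged from -0.16 to 0.052, the latter without irradiated library 1, and LINC02878 from -0.011, without irradiated library 2, to 1.04. LINC02693 was -0.31 at equal depth and ranged from -0.17 to 0.35 with 1 library left out, LINC02381 from -1.65 to 0.38 and LINC02340 from -0.88 to 1.11. LINC00877 was -0.060 with library totals, -0.023 without a filter and -0.23 to 0.27 with 1 library left out. None of the values with a turned sign passed the test. Of 463 values of 50 named members under another setting, 411 kept direction and call. Only 14 of the 50 were called in the main fit, so the 411 include values of members that stayed not called.

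The replicate block gave 10 calls, 6 rises and 4 falls, without LINC01814 (edgeR adjusted p = 0.0779), LINC00662 (0.0504), LINC01695 (0.0771) and LINC02615 (0.0716), and the median log2 fold change was -0.05. The same-numbered libraries' deviations correlated at -0.083 over 9230 genes and the labels give only numbers, so pairing was not shown. The shallowest library held 400723 gene counts, and power at low counts was not measured.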
